A study of Mus musculus with 3 samples.

Results

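The genes followed across the small intestine were the constant genes of the T cell receptor chains (Trac, Trbc1, Trbc2, Trdc, Tcrg-C1, Tcrg-C2 and Tcrg-C4) and the coreceptor genes Cd8a, Cd8b1 and Cd4. They are 10 of the 31053 genes in the count matrices and were chosen by their symbols. They were measured in barcodes with 2 or more unique molecular identifiers (UMIs, counted transcript molecules) of Cd3d, Cd3e and Cd3g summed, which encode the invariant CD3 chains that every T cell receptor needs. These are called Cd3 barcodes here, and they numbered 1514 of 16686 barcodes kept.

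The cells came from the duodenum, jejunum and ileum of wild-type C57BL/6N mice, males of 12 weeks without transgene or treatment. The tissue was freed of its epithelium and intraepithelial immune cells with EDTA and DTT, and propidium iodide-negative live cells were sorted and sequenced with 10x Genomics 3′ chemistry. Cells of 3 mice were pooled before each library and each segment gave 1 library, so mice cannot be told apart. Segments are therefore described without a test, and a p-value across the 3 libraries measures only how far these libraries spread. Pooling, the predigestion and the live sort also limit how far the shares of cells stand for the tissue.

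A T cell receptor is a pair of chains, alpha with beta or gamma with delta, each with a variable part built by gene rearrangement and a constant part encoded by the genes studied here. The delta genes lie inside the alpha locus, so rearrangement of the alpha locus normally removes them. CD4 and the CD8 alpha-beta heterodimer are the coreceptors of conventional alpha-beta T cells, whereas many T lymphocytes of the gut epithelium, gamma-delta cells among them, carry a CD8 alpha-alpha homodimer and no CD8 beta chain.

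All 10 identifiers were found in the GENCODE M21 annotation of the mouse genome GRCm38. The alpha gene Trac (ENSMUSG00000076928) lies at chr14:54220521-54224206 and the delta gene Trdc (ENSMUSG00000104876) upstream of it at chr14:54142851-54148868, both on the plus strand. The 2 beta genes are neighbours on the plus strand, Trbc1 (ENSMUSG00000076490) at chr6:41538218-41539881 and Trbc2 (ENSMUSG00000076498) at chr6:41546730-41548352. The gamma genes are Tcrg-C1 (ENSMUSG00000076749) at chr13:19214103-19217024, Tcrg-C2 (ENSMUSG00000076752) at chr13:19304649-19307551 and Tcrg-C4 (ENSMUSG00000076757) at chr13:19344558-19352756, with Tcrg-C2 alone on the minus strand. Cd8b1 (ENSMUSG00000053044, chr6:71322788-71337494) and Cd8a (ENSMUSG00000053977, chr6:71373427-71379173) are neighbours on the plus strand, and Cd4 (ENSMUSG00000023274) lies on the minus strand at chr6:124864692-124888221.

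The beta genes are near copies of each other, and so are 2 of the gamma genes, which bears on how reads could be told apart. Trbc1 and Trbc2 were identical at 495 of 518 coding bases (95.6%), with an unbroken identical run of 259 bases, but at only 58.5% of the aligned bases of their 3′ untranslated parts. The following 90-base stretch of exon 3 of 4 holds more of their differences than any other in 1 exon; the 14 bases in capitals differ. Trbc1 is read at chr6:41539235-41539324 and Trbc2 at chr6:41547778-41547867, both on the plus strand of GRCm38.
Trbc1: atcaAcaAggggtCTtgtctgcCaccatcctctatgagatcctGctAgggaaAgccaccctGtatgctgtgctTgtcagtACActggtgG
Trbc2: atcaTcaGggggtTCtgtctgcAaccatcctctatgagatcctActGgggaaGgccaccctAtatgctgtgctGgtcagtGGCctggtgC

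Tcrg-C1 and Tcrg-C2 were identical at 487 of 500 aligned coding bases (97.4%) and at 385 of 409 bases (94.1%) of the 3′ untranslated part, where the longest identical run was 104 bases. Tcrg-C4 stood apart, with 76.9% of coding bases shared with Tcrg-C1 and 76.8% with Tcrg-C2, and 54.5% and 58.2% of the 3′ untranslated parts. How the authors' counting divided reads from shared stretches was not tested, and UMIs of Tcrg-C1 and Tcrg-C2 are uncertain to that extent. The stretch shown is the 90 bases of 1 coding exon with most differences among the 3 genes, which stand in capitals. Tcrg-C1 is read at chr13:19216523-19216612 (plus strand), Tcrg-C2 at chr13:19305066-19305155 (minus strand) and Tcrg-C4 at chr13:19352248-19352337 (plus strand), each in the last exon. Within it, Tcrg-C1 and Tcrg-C2 differed at 2 bases, whereas Tcrg-C4 differed from Tcrg-C1 at 34 and from Tcrg-C2 at 33.
Tcrg-C1: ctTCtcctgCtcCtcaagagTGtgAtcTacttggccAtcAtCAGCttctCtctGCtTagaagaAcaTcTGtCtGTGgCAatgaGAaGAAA
Tcrg-C2: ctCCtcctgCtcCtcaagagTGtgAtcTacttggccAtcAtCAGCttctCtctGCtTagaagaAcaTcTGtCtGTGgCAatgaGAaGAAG
Tcrg-C4: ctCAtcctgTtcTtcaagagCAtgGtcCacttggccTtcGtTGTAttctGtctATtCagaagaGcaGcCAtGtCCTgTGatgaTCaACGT

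Cd3 barcodes numbered 53 of 4255 in the duodenum (1.25%, exact 95% binomial interval 0.934 to 1.63), 150 of 4360 in the jejunum (3.44%, 2.92 to 4.02) and 1311 of 8071 in the ileum (16.2%, 15.4 to 17.1). Their median depth was 3723, 4140.5 and 4092 UMIs. The T cell marker list held 11 genes besides the CD3 genes, which the rule used, and all 11 had a higher level in Cd3 barcodes than in barcodes without CD3 in each library. In 1450 of the 1514 (95.8%) there was at least 1 UMI of Trac, Trbc1, Trbc2 or Trdc. This share was 65.4% in the 104 barcodes with exactly 2 CD3 UMIs, just inside the threshold, and 17.3% in the 715 with 1, just outside it. Enterocyte genes made up over 1% of the UMIs of 209 Cd3 barcodes (13.8%), and doublets were not called. No Cd3 barcode sequence was shared by the Cd3 barcodes of 2 libraries, and 3 occurred among the other kept barcodes of another library. Intervals here and below cover counting error only.

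The alpha gene Trac, whose chain marks alpha-beta T cells, was detected in 56.6% of Cd3 barcodes of the duodenum (42.3 to 70.2), 60.0% of the jejunum (51.7 to 67.9) and 66.1% of the ileum (63.4 to 68.6). Its level was 3.31, 3.47 and 4.24 UMIs per 10,000 UMIs in this order. Trdc, which encodes the delta constant part, was detected in 43.4% (29.8 to 57.7), 57.3% (49.0 to 65.4) and 43.1% (40.4 to 45.8), at 4.87, 9.51 and 6.69 UMIs per 10,000. The jejunum thus had the highest share with Trdc and the ileum the highest with Trac, and the duodenal interval overlapped both others for either gene.

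Of the beta genes, Trbc2 had UMIs in 69.8%, 81.3% and 88.6% of Cd3 barcodes of the duodenum, jejunum and ileum, at levels of 8.52, 11.5 and 11.7 UMIs per 10,000. Trbc1 had UMIs in 49.1%, 64.0% and 63.5%, at 5.02, 9.92 and 8.52 UMIs per 10,000. Both genes were lowest in the duodenum by level and by share.

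Among the gamma genes, Tcrg-C1 was detected in 49.1%, 56.7% and 40.6% of Cd3 barcodes (3.15, 6.61 and 3.45 UMIs per 10,000), with its highest value in the jejunum as for Trdc. Tcrg-C2 was detected in 43.4%, 64.7% and 63.5% (2.10, 4.62 and 3.85 UMIs per 10,000). Tcrg-C4 was detected in 54.7%, 54.0% and 55.5% (2.18, 3.30 and 2.77 UMIs per 10,000), so that its share barely moved between segments.

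The coreceptor genes differed from each other in how they followed the segments. Cd8a, which encodes the CD8 alpha chain of both CD8 forms, was detected in 60.4%, 70.0% and 68.6% of Cd3 barcodes (6.07, 9.58 and 6.61 UMIs per 10,000). Cd8b1, which encodes the beta chain, was detected in 7.55% of the duodenum (2.09 to 18.2), 14.0% of the jejunum (8.88 to 20.6) and 27.4% of the ileum, at 0.506, 0.803 and 2.19 UMIs per 10,000. Cd4 was detected in 9.43% (3.13 to 20.7), 4.00% (1.48 to 8.50) and 6.18%, at 0.234, 0.113 and 0.198 UMIs per 10,000, from 6 and 8 UMIs in the duodenum and jejunum. Ileal Cd8b1 lay above both other segments beyond counting error, whereas the intervals of Cd4 overlapped between the duodenum and jejunum.

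Barcodes with 2 or more UMIs of epithelial genes and none of CD3 gave the background. They numbered 4110, 4080 and 6055 and were deeper, with medians of 12605, 12010.5 and 6246 UMIs. Detection of the 10 genes reached at most 3.62% in them (Trbc2 in the ileum), and Cd4 was found in 0.219%, 0.294% and 0.495%. Trac was the exception in the duodenum, at 1.44% of epithelial barcodes against 0.0243% to 0.219% for the other 9 genes. The ratio of Trac to Trbc2 UMIs there was 11.5, against 0.388 in duodenal Cd3 barcodes. In the jejunum it was 1.8 against 0.301, from 54 and 30 UMIs in epithelial barcodes, and in the ileum 0.412 against 0.363.

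**Figure D1:**
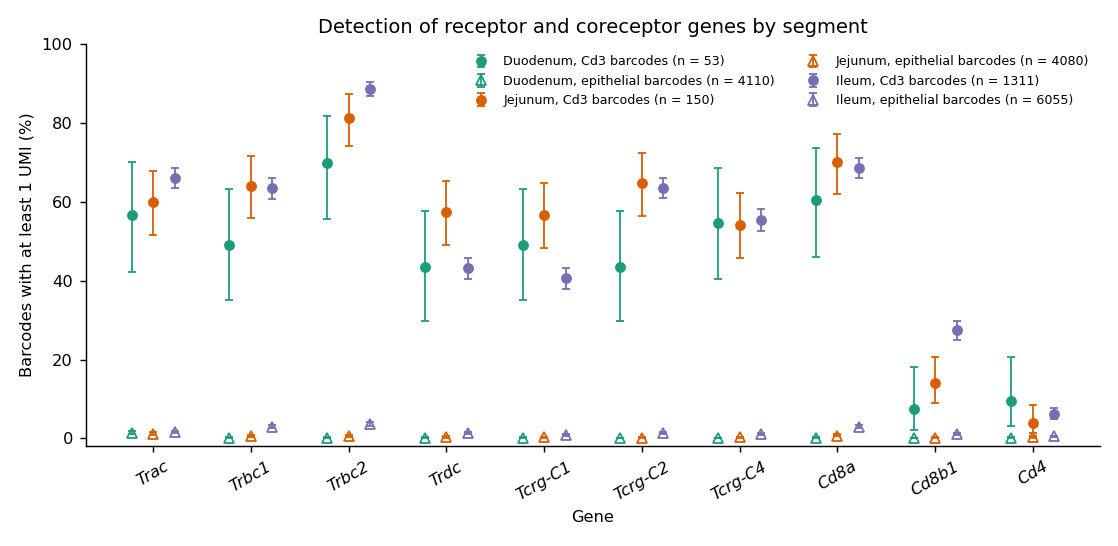
Percentage of barcodes with at least 1 UMI of each of the 10 genes, by segment, in Cd3 barcodes (filled circles) and in epithelial barcodes without CD3 UMIs (open triangles), with exact 95% binomial intervals. All epithelial values lie at or below 3.62%, and Cd8b1 is at 7.55% in duodenal and 27.4% in ileal Cd3 barcodes.

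The first comparison asked how the levels of the 10 genes differed between Cd3 barcodes and barcodes without CD3. Summed per library, each of the 10 genes was higher in Cd3 barcodes than in barcodes without CD3 in 3 of 3 libraries, with no overlap between the groups. At an adjusted p under 0.05 (Benjamini-Hochberg, edgeR's quasi-likelihood test), 10 of 10 were called. That test called 6728 of 14225 genes (47.3%), 19.3% higher and 28% lower. The log2 fold changes of the receptor genes were 7.29 ± 0.43 (SE, n = 3 libraries) for Trac, 8.93 ± 0.65 for Trbc1, 9.54 ± 0.66 for Trbc2, 9.93 ± 0.61 for Trdc, 9.53 ± 0.55 for Tcrg-C1, 9.23 ± 0.55 for Tcrg-C2 and 8.44 ± 0.59 for Tcrg-C4. Among coreceptors they were 8.64 ± 0.62 for Cd8a, 6.12 ± 0.40 for Cd8b1 and 4.13 ± 0.57 for Cd4. In barcodes without CD3 of the duodenum, jejunum and ileum, Trdc had 5, 14 and 99 UMIs. Tcrg-C1 had 6, 12 and 57 there and Tcrg-C2 4, 9 and 82. Trdc, Tcrg-C1 and Tcrg-C2 thus entered the test through the Cd3 barcodes, and their direction is given as a description only. The adjusted p-values of the 10 genes ran from 1.9e-16 to 2.37e-07 in edgeR, and their median log2 fold change was 8.79 against -0.24 over all genes tested. With library totals in place of TMM scaling the median of all genes shifted to 0.44 and the split turned to 4553 higher and 2189 lower, while all 10 genes stayed higher.

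Genes that work beside the receptor followed it. Of 20 genes of the receptor complex and its proximal signalling, 20 rose in edgeR's test (median log2 fold change 6.61), among them Trat1 (8.89), a receptor-associated adaptor, Cd247 (8.18), the zeta chain, and the kinase gene Zap70 (8.08). Of 19 tested lineage and helper genes 15 rose and 3 fell, and those with the largest rise were Cd40lg, with 2 UMIs in all barcodes without CD3, Ikzf2 (7.88), Gata3 (7.15) and Icos (7.09). In barcodes without CD3, Trat1 had 1, 2 and 24 UMIs, Cd247 5, 7 and 22 and Zap70 2, 13 and 72. Gata3 had 1, 6 and 29 there and Icos 3, 11 and 45. These genes and Cd40lg entered the test through the Cd3 barcodes, and their direction is given as a description only. Of 19 gamma-delta and intraepithelial genes 15 rose and 2 fell, led by Cd7 (8.82), Klrd1 (8.05), Xcl1 (7.76) and Cd160 (7.73). All but 1 of 15 cytotoxic genes rose, led by the granzymes Gzma (9.13) and Gzmb (8.99), the chemokine Ccl5 (9.11) and the granule protein gene Nkg7 (8.95). Of 176 variable gene segments 14 had enough UMIs to be tested. Of the 4 with the largest fitted changes, Tcrg-V1, Trav16 and Trav13-4-dv7 had 0 UMIs in barcodes without CD3 and Trav15-2-dv6-2 had 1, so such segments entered the test through the Cd3 barcodes and their direction is no result. The background share of genes called higher in this comparison was 19.3%. All 13 enterocyte, 7 epithelial, 5 goblet cell and 5 plasma cell markers fell. Of 10 macrophage and dendritic cell markers 7 fell and 1 rose, while 4 of 6 tested innate lymphoid and natural killer markers rose, Il7r (5.88) most, as did 1 of 6 B cell markers, Cd79b (1.73).

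The barcodes were then placed in receptor classes by Trac and Trdc alone. Trac without Trdc was found in 626 Cd3 barcodes (41.3%), Trdc without Trac in 314 (20.7%), both in 360 (23.8%) and neither in 214 (14.1%). In the duodenum these were 18, 11, 12 and 12 barcodes, in the jejunum 41, 37, 49 and 23, and in the ileum 567, 266, 299 and 179. Depth differed between classes, with median UMIs of 4082, 3957, 4535.5 and 1778.5, and a gene can be missed at these depths. With each barcode thinned to 2000 UMIs, the shares over the 1282 barcodes deep enough were 36.7%, 26.1%, 16.4% and 20.7%. The classes are therefore classes of detection and not of cells.

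Of barcodes with 1 of the 2 genes alone, Trdc-only barcodes were 11 of 29 in the duodenum (37.9%, 20.7 to 57.7), 37 of 78 in the jejunum (47.4%, 36.0 to 59.1) and 266 of 833 in the ileum (31.9%, 28.8 to 35.2). The jejunal share was the highest and its interval did not overlap that of the ileum. At 2000 UMIs the shares were 36.8%, 54.5% and 40.5%, again highest in the jejunum, but the intervals of the jejunum (41.8 to 66.9) and ileum (36.9 to 44.2) then overlapped.

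The second comparison asked what distinguished Trdc-only from Trac-only barcodes in genes that did not define them. The gamma gene Tcrg-C1 was higher with Trdc, Cd8b1 was higher with Trac, and Cd4 UMIs were found in Trac-only but in no Trdc-only barcodes. Of the 7 members tested, 2 passed edgeR's quasi-likelihood test, Tcrg-C1 and Cd8b1. Over all genes 23 of 3276 passed (0.702%), 3 higher (0.0916%) and 20 lower (0.611%) in Trdc-only barcodes. This count was unstable: it was 120 without the duodenum, 103 without the jejunum and 7 without the ileum, and 183 of 6846, with 76 higher and 107 lower, without barcodes over 1% enterocyte UMIs. In the duodenum and jejunum Trdc-only barcodes were shallower than Trac-only barcodes (median 1875 against 3859.5 and 3015 against 4397 UMIs) and had a higher median mitochondrial share (11.0% against 4.94% and 11.8% against 4.91%). In the ileum the medians were 4012 against 4072 UMIs and 4.85% against 5.54%. The part of depth and mitochondrial share in the results of this comparison was not tested. Tcrg-C1 stood at 2.65, 8.11 and 6.12 UMIs per 10,000 in Trdc-only barcodes of the duodenum, jejunum and ileum against 0.679, 0.652 and 0.359 in Trac-only barcodes. The lowest Trdc-only value thus lay above the highest Trac-only value, and the log2 fold change was 3.56 ± 0.36 (SE, n = 3 libraries, edgeR adjusted p = 0.000551). Cd8b1 had 0 UMIs in duodenal Trdc-only barcodes against 13 in Trac-only barcodes. Its jejunal level was 0.763 against 1.85 UMIs per 10,000 and its ileal level 0.198 against 4.18. Its groups did not overlap either, and its fitted log2 fold change was -3.66 ± 0.53 (edgeR adjusted p = 0.00705). This call rested on the ileum: without that library Cd8b1 gave -1.70 (edgeR adjusted p = 0.46). In Trdc-only barcodes Cd8b1 had 0, 11 and 25 UMIs, against 13, 34 and 1176 in Trac-only barcodes. It entered the test through the Trac-only barcodes, and its direction is given as a description only.

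Cd4 had too few UMIs for the fit. Trdc-only barcodes held 0 Cd4 UMIs in all 3 libraries, whereas Trac-only barcodes held 5, 7 and 123. The Cd4 level of Trac-only barcodes was 18.4-fold a floor of 3 UMIs in the ileum and 1.83-fold in the jejunum, without regard to its own counting error. The jejunal value rested on 7 UMIs, and the counting intervals overlapped there (0.153 to 0.783 against 0 to 0.256 UMIs per 10,000). It is therefore no lower bound, and the duodenal counts were too low for such a comparison.

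The other gamma genes did not pass. Tcrg-C4 was higher in Trdc-only barcodes in each segment, at 3.06 against 1.16, 5.13 against 2.44 and 4.02 against 1.94 UMIs per 10,000, but its log2 fold change of 1.07 ± 0.23 did not pass (edgeR adjusted p = 0.0955). Tcrg-C2 stood at 2.45 against 1.45, 4.65 against 4.07 and 5.12 against 3.30 UMIs per 10,000 (log2 fold change 0.45 ± 0.25, edgeR adjusted p = 0.694). By detection, Tcrg-C1 was found in 27.8%, 19.5% and 9.35% of Trac-only barcodes against 63.6%, 75.7% and 75.9% of Trdc-only barcodes. Tcrg-C2 was found in 38.9%, 56.1% and 55.2% against 54.5%, 67.6% and 77.1%, so more than every second Trac-only barcode of the jejunum and ileum held this gamma gene. Tcrg-C1 took 6.89% of all Tcrg UMIs of Trac-only barcodes and 40.6% of those of Trdc-only barcodes.

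The beta genes and Cd8a also failed the test. Trbc2 stood in the order duodenum, jejunum, ileum at 1.43 against 15.2, 8.53 against 17.7 and 9.78 against 15.1 UMIs per 10,000 (log2 fold change -1.47 ± 0.43, edgeR adjusted p = 0.328). Trbc1 stood at 4.29 against 5.63, 7.98 against 15.3 and 7.14 against 10.3 UMIs per 10,000 (-0.68 ± 0.27, adjusted p = 0.527). Both were lower in Trdc-only barcodes in 3 of 3 libraries, yet 86.8% of ileal Trdc-only barcodes held Trbc2 and 63.5% held Trbc1. Cd8a stood at 7.96 against 3.98, 9.99 against 8.42 and 5.21 against 6.71 UMIs per 10,000 (0.19 ± 0.31, adjusted p = 0.959), higher with Trdc in the duodenum and lower in the ileum.

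Beyond the members, single genes of the fixed lists were lower in Trdc-only barcodes. Of 19 tested genes of the receptor complex list 4 fell and none rose by edgeR: the costimulatory receptor Cd28 (log2 fold change -5.52), the receptor modulators Cd5 (-4.62) and Cd6 (-3.97) and the adhesion receptor Cd2 (-2.67). Cd28 had 0, 2 and 4 UMIs in Trdc-only barcodes against 17, 69 and 475 in Trac-only barcodes. In Trdc-only barcodes Cd5 had 0, 1 and 6 UMIs, Cd6 0, 1 and 12, and Cd2 0, 1 and 39. Of 10 lineage and helper genes 3 fell, the costimulatory receptor Icos (-4.51), the inhibitory receptor Ctla4 (-3.42) and the transcription factor Maf (-1.24). Icos had 0, 0 and 8 UMIs in Trdc-only barcodes and Ctla4 0, 1 and 15. Cd28, Cd5, Cd6, Cd2, Icos and Ctla4 thus entered the test through the Trac-only barcodes, and their direction is given as a description only. None of 14 gamma-delta and intraepithelial genes and none of 11 cytotoxic genes passed edgeR's test. In each of these lists 1 gene had an unadjusted p under 0.05, and DESeq2 called 0. The goblet cell marker Clca1 (-3.15) and Il7r (-2.02) also fell, 1 of 4 tested goblet markers and the only tested innate lymphoid marker. Il7r had 0, 8 and 89 UMIs in Trdc-only barcodes against 8, 54 and 671, so its direction is likewise a description. None of 13 enterocyte and 6 epithelial markers passed edgeR's test, with 2 and 1 at an unadjusted p under 0.05 and 0 by DESeq2. The part of these cell types in the result was not tested.

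Barcodes with both Trac and Trdc were described without a test. Their Tcrg-C1 level lay above that of Trdc-only barcodes in each segment, and their Cd8b1 and Cd4 levels were near 0. Tcrg-C1 stood at 6.62, 11.0 and 7.88 UMIs per 10,000 and took 49.3% of their Tcrg UMIs. Trdc stood at 8.27, 15.8 and 14.8 UMIs per 10,000, and Trac at 3.19, 4.03 and 3.90 against 5.63, 6.74 and 7.49 in Trac-only barcodes. Cd8b1 was at 0, 0.0331 and 0.318 UMIs per 10,000 and Cd4 at 0, 0.0331 and 0.0231, whereas Cd8a was detected in 91.7%, 89.8% and 88.0%. All 3 gamma genes were found together in 60.0% of these barcodes, 46.5% of Trdc-only and 5.59% of Trac-only barcodes, and none of the 3 in 1.11%, 4.14% and 34.5%. These barcodes were the deepest class.

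**Figure D2:**
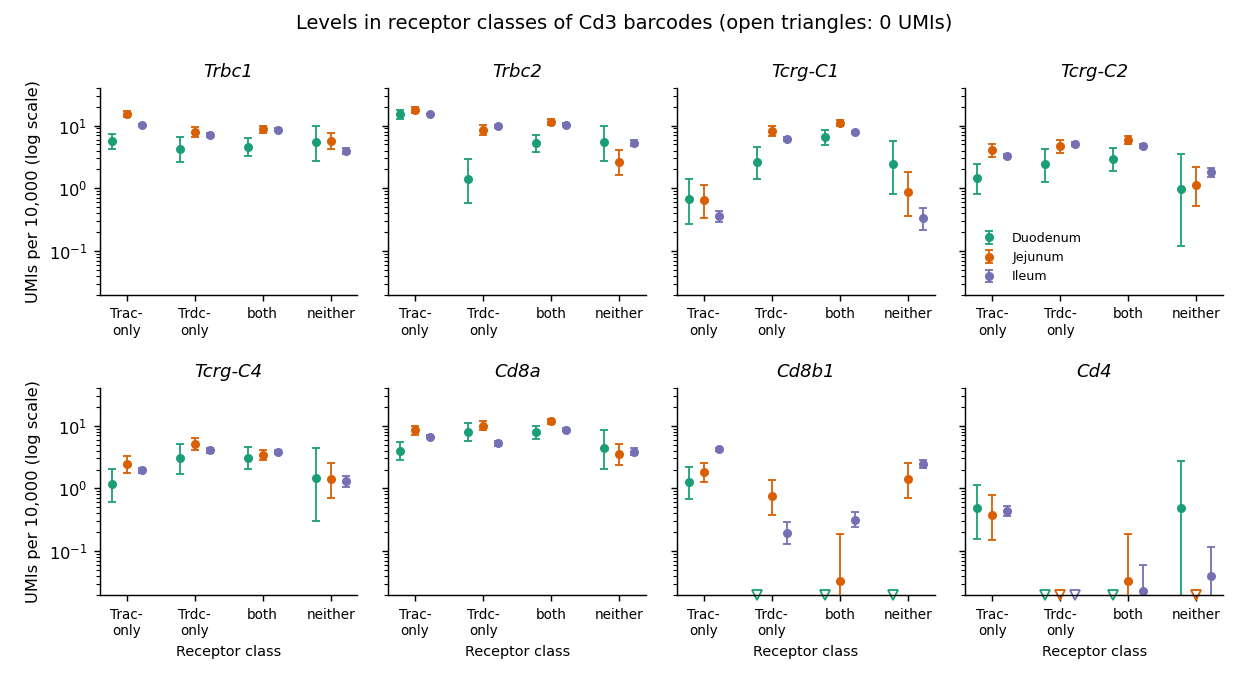
UMIs per 10,000 UMIs (log axis) of 8 genes in the receptor classes defined by Trac and Trdc, by segment (colours), with exact 95% Poisson intervals; open triangles at the lower edge mark 0 UMIs. Tcrg-C1 lies higher in Trdc-only barcodes than in Trac-only barcodes in all 3 segments, and Cd8b1 and Cd4 lie lower. The counting intervals of Cd8b1 and Cd4 overlap between these classes in the duodenum and jejunum.

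A beta chain is made from either Trbc1 or Trbc2, and most barcodes with enough UMIs held both genes. Of 434 Trac-only barcodes with 8 or more UMIs of the pair, Trbc1 took under 10% of these UMIs in 127 (29.3%), between 10% and 90% in 295 (68.0%) and over 90% in 12 (2.76%). With 16 or more UMIs the shares over 182 barcodes were 18.7%, 78.6% and 2.75%. In Trdc-only barcodes 18, 99 and 1 of 118 fell in these ranges, and in barcodes with both Trac and Trdc 32, 170 and 5 of 207. Barcodes nearly pure in Trbc2 were thus common in each class and those nearly pure in Trbc1 rare. The coding stretches shared by both genes, shown above, bear on this count, and their part in it was not tested.

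**Figure D3:**
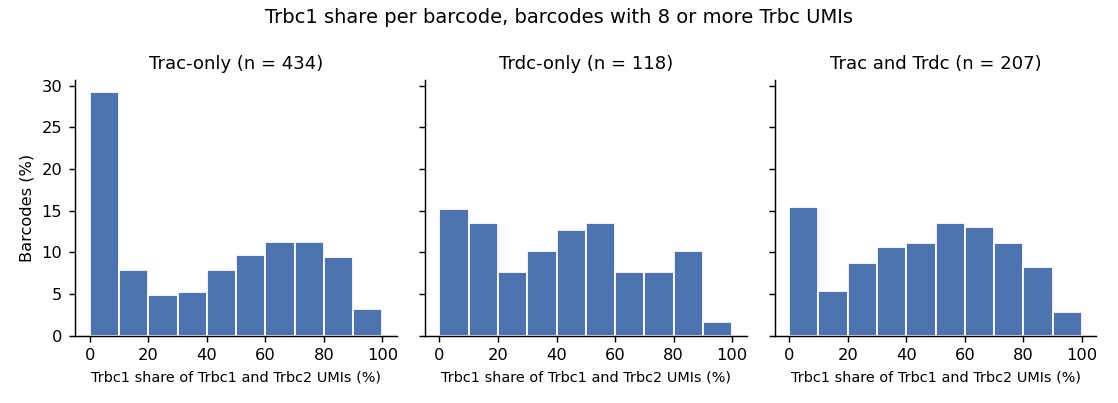
Share of Trbc1 among Trbc1 and Trbc2 UMIs per barcode (horizontal axis, %, bins of 10) against the percentage of barcodes (bars), in Cd3 barcodes with 8 or more UMIs of the 2 genes. The lowest bin holds 29.3% of the 434 Trac-only barcodes, and most others lie in between.

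Coreceptor combinations followed the receptor class. Of the 626 Trac-only barcodes, 277 (44.2%) held Cd8a with Cd8b1, 133 (21.2%) Cd8a without Cd8b1, 75 (12.0%) Cd4 without CD8 genes and 123 (19.6%) none of the 3. Only 10 held Cd8b1 without Cd8a and 8 held Cd4 with a CD8 gene. Of the 314 Trdc-only barcodes, 183 (58.3%) held Cd8a without Cd8b1, 119 (37.9%) none, 9 both CD8 genes, 3 Cd8b1 alone and 0 Cd4. Of the 360 barcodes with both Trac and Trdc, 296 (82.2%) held Cd8a without Cd8b1 and 19 (5.28%) both CD8 genes. With segments pooled, Cd8a without Cd8b1 was thus the leading combination wherever Trdc was present, and Cd8a with Cd8b1 where Trac stood alone. The lead in Trac-only barcodes was ileal. Among those without Cd4, 273 ileal barcodes held Cd8b1 against 109 with Cd8a and no Cd8b1. In the duodenum (4 against 6) and jejunum (10 against 18) Cd8a without Cd8b1 was the more frequent form.

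By segment, Cd8b1 was found in 4 of 18 Trac-only barcodes of the duodenum (22.2%, 6.41 to 47.6), 10 of 41 of the jejunum (24.4%, 12.4 to 40.3) and 274 of 567 of the ileum (48.3%, 44.1 to 52.5). The ileal interval lay above that of the jejunum and overlapped that of the duodenum. At 2000 UMIs the shares were 16.7%, 16.7% and 38.2%, with the ileum again highest, but the intervals of the jejunum (5.64 to 34.7) and ileum (33.6 to 43.0) then overlapped. In epithelial barcodes of the 3 segments Cd8b1 was detected in 0.0487%, 0.172% and 1.12%.

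**Figure D4:**
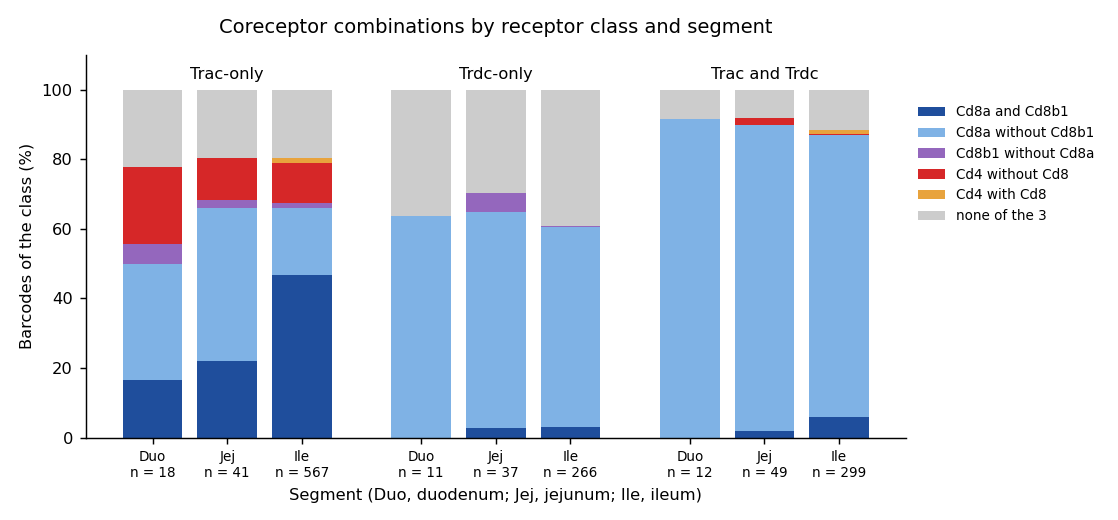
Percentage of barcodes (stacked bars, from 0 to 100) with each combination of Cd8a, Cd8b1 and Cd4, by receptor class and segment. Cd8a with Cd8b1 makes up 46.7% of ileal Trac-only barcodes, and Cd4 is absent from all Trdc-only bars.

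The third comparison set Trac-only barcodes with Cd8b1 against those with Cd8a and no Cd8b1. These forms are again classes of detection, since Cd8b1 can be missed at this depth. Barcodes with Cd8b1 were not required to hold Cd8a. The comparison rested on 2 libraries, with 10 against 18 jejunal and 273 against 109 ileal barcodes, since the duodenum had too few. Tcrg-C1 was lower with Cd8b1, at 0.480 against 1.36 UMIs per 10,000 in the jejunum, from 2 and 10 UMIs, and at 0.145 against 1.21 in the ileum, from 20 and 61. The log2 fold change was -2.81 ± 0.39 (SE, n = 2 libraries, edgeR adjusted p = 1.16e-10), with a spread shared over genes and 1 residual degree of freedom. Its jejunal counting interval spanned 0 (log2 ratio -1.50, -4.73 to 0.73). Tcrg-C1 entered the test through barcodes without Cd8b1, and its direction is given as a description only. Of 5 members tested, 1 passed, against 143 of 4556 genes (3.14%) in all, 74 higher (1.62%) and 69 lower (1.51%). DESeq2 called 6 genes and gave Tcrg-C1 an adjusted p of 0.999. Trbc1 (-0.67 ± 0.36), Trbc2 (-0.08 ± 0.39), Tcrg-C2 (-0.32 ± 0.29) and Tcrg-C4 (-0.30 ± 0.28) did not pass, with edgeR adjusted p-values from 0.542 to 0.991.

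Other genes separated these forms in edgeR's test. Of 15 tested gamma-delta and intraepithelial genes 6 fell and 1 rose with Cd8b1, and the largest falls were in the signalling adaptors Fcer1g (log2 fold change -4.63) and Tyrobp (-4.36) and the natural killer receptor genes Klre1 (-4.40) and Klrd1 (-2.98). Fcer1g had 0 UMIs with Cd8b1 and 238 without in the jejunum, and 0.842 against 15.8 UMIs per 10,000 in the ileum. With Cd8b1, Klre1 had 0 and 6 UMIs (jejunum and ileum) against 16 and 49 without, and Tyrobp 0 and 46 against 130 and 298. Klrd1 had 0 and 218 with Cd8b1 against 98 and 493 without. Fcer1g, Klre1, Tyrobp and Klrd1 entered the test through barcodes without Cd8b1, and their direction is given as a description only. Of 19 receptor complex genes 5 rose, Cd5 (2.24), Cd28 (2.08) and Cd6 (1.96) among them, and Fcer1g fell. Of 10 lineage genes 3 rose, Ctla4 (1.64), Maf (1.45) and Bcl11b (1.22), and Ikzf2 (-3.05) fell. Of 12 cytotoxic genes 3 rose, Ifng (1.95), Gzmk (1.72) and Ccl4 (1.66), and Gzmb (-1.69) fell. Without Cd8b1, Cd5 had 0 and 14 UMIs in the jejunum and ileum, Ctla4 2 and 9, and Ifng 2 and 5. Cd28 had 3 and 7 there, Cd6 1 and 26, and Gzmk 2 and 25. Cd5, Ctla4, Ifng, Cd28, Cd6 and Gzmk thus entered the test through barcodes with Cd8b1, and their direction is likewise a description. DESeq2 called far fewer: 1 of the 15 gamma-delta and intraepithelial genes, 0 of the 19 receptor complex genes, 1 of the 10 lineage genes, 2 of the 12 cytotoxic genes and 0 of the 5 goblet markers. Genes of other cells moved alongside: 5 of 5 goblet markers (Agr2, 2.34; Muc2, 2.01; Zg16, 2.00; Clca1, 1.96 among them), 2 of 7 epithelial markers (Krt18, 2.05; Krt20, 1.09), 1 of 12 enterocyte markers (Apoc3, 1.03), Il7r (2.64) and the plasma cell gene Igha (4.24) rose with Cd8b1, and Itgax (-2.05) fell. This rise was ileal for Igha, Agr2 and Krt18, which were not higher with Cd8b1 in the jejunum (Igha at 1.44 against 1.49 UMIs per 10,000, Agr2 at 0 against 2 UMIs and Krt18 at 0 against 1), and Zg16 stood there at 3.84 against 3.80 UMIs per 10,000. Itgax had 0 and 13 UMIs with Cd8b1 against 12 and 18 without, and Il7r 9 and 351 against 2 and 23. The direction of Itgax and Il7r is likewise a description. The part of these genes of other cells in the result was not tested.

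The fourth comparison, Cd4-positive against Cd8-positive Trac-only barcodes, could be made in the ileum alone, without a test, with 66 against 382 barcodes. Cd4-positive barcodes were 14.7% of the 448 (11.6 to 18.4). The gamma genes Tcrg-C2 and Tcrg-C4 stood lower in Cd4-positive barcodes, at 0.530 against 4.32 and 0.0311 against 2.65 UMIs per 10,000. The log2 ratio of Tcrg-C2 was -3.03 (counting interval -3.82 to -2.34), and Tcrg-C4 had 1 UMI against 498 (log2 ratio -6.41, -11.71 to -3.92). Tcrg-C1 was low in both groups, at 0.343 and 0.430 UMIs per 10,000, and its counting interval spanned 0 (log2 ratio -0.33, -1.39 to 0.59). The beta genes were somewhat higher with Cd4, at 12.8 against 9.41 UMIs per 10,000 for Trbc1 and 18.4 against 15.1 for Trbc2.

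Helper and costimulatory genes stood higher in the Cd4-positive barcodes: Icos by a log2 ratio of 4.19, Cd28 by 3.85, Ctla4 by 3.36, Maf by 3.18 and the transcription factor gene Tcf7 by 2.30. Cd40lg, the ligand with which helper cells engage CD40, had 38 UMIs in them and 3 in the Cd8-positive barcodes. Lower were Runx3 (-2.28), a transcription factor of the CD8 lineage, the integrin gene Itgae (-4.46), whose product binds epithelial E-cadherin, Cd7 (-4.52), Xcl1 (-5.48), Ccl5 (-3.62), Gzma (-2.93) and Gzmb (-3.04). Not all listed genes followed. Among lineage genes, the intervals of Zbtb7b (0.73, -0.20 to 1.58), Gata3 (0.44, -0.44 to 1.24) and Ikzf2 (-0.23, -0.60 to 0.12) spanned 0. Srgn of the cytotoxic list stood higher with Cd4 (0.69, 0.53 to 0.84). The genes named here were chosen from the lists after their values were seen, and the ratios compare pools of cells of 1 library.

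Across Cd3 barcodes thinned to 2000 UMIs, pairs of members were found together more or less often than independent detection would give, described here by an odds ratio stratified by library over 1282 barcodes that share library and depth. Trdc went with Tcrg-C1 (log2 odds ratio 4.65) and away from Trac (-1.50), Cd8b1 (-3.91) and Cd4 (-4.35). Cd4 went with Trac (3.40) and Trbc2 (3.60) and away from Cd8a (-4.27) and Tcrg-C2 (-4.55), and no barcode held Cd4 with Cd8b1 at this depth. Cd8a went with Cd8b1 (2.75), Tcrg-C2 with Tcrg-C4 (1.50) and Trbc1 with Trbc2 (0.82).

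**Figure D5:**
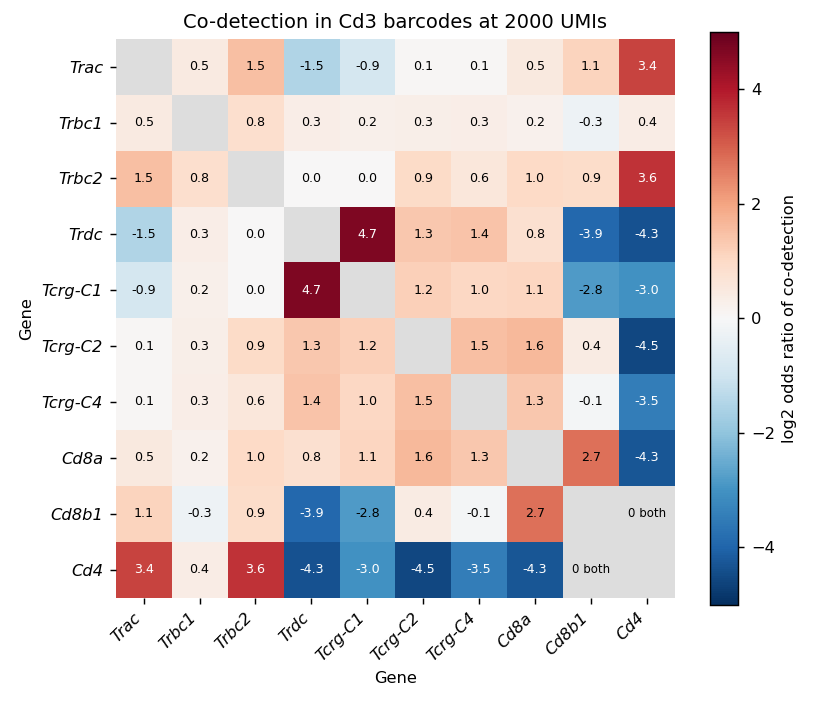
Log2 odds ratio that 2 genes have UMIs in the same Cd3 barcode, each barcode thinned to 2000 UMIs (n = 1282), stratified by library; red pairs occur together, blue pairs apart. Trdc with Tcrg-C1 reaches 4.65, and Cd4 is blue with both Cd8a and Trdc.

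The genes most like 7 of the members were ranked by the mean over libraries of the within-library correlation across Cd3 barcodes, among 6926 genes and with depth shared by all points. For Trdc they were Klrd1 (0.483), Fgl2 (0.434) and Cd3g (0.396), below its fellow member Tcrg-C1 (0.632). For Tcrg-C1 they were Fcer1g (0.497), Cd7 (0.455) and Fgl2 (0.425). Cd8a varied with Ccl5 (0.548), Nkg7 (0.539) and Cd7 (0.494), and Cd8b1 with Ms4a4b (0.361), Thy1 (0.357) and Lat (0.320). Cd4 varied with Cd28 (0.534), Ctla4 (0.480) and Maf (0.443). Trac and Trbc2 varied most with ribosomal protein genes, led by Rpl34 (0.480) and Rps9 (0.572).

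The chemistry reads the 3′ end of a transcript, and few variable segments had UMIs. Any of 7 gamma variable segments was found in 182 of 626 Trac-only barcodes (29.1%), 176 of 314 Trdc-only barcodes (56.1%) and 204 of 360 with both genes (56.7%). Trgv2 was the most frequent of them, in 25.7%, 39.5% and 44.4% of the 3 classes. In the ileum it had 3 UMIs in the Cd4-positive and 186 in the Cd8-positive Trac-only barcodes. Alpha segments without a delta name were found in 14.4%, 4.46% and 6.39%, segments shared by alpha and delta in 2.08%, 15.9% and 7.78%, delta segments in 5.43%, 16.6% and 17.8% and beta segments in 6.23%, 1.59% and 4.17%. Alpha and beta segments thus had their highest share in Trac-only barcodes, where gamma, delta and shared segments had their lowest.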

How the data were processed

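Single cells of 3 pooled wild-type mice were sequenced as 1 library per segment. The authors made UMI counts per gene and barcode with Cell Ranger 3.0.2 on GRCm38 (mm10), per the submitters' processing notes, and the deposited values are whole counts for barcodes called as cells, without normalization. The libraries held 9501, 8139 and 9595 barcodes (duodenum, jejunum, ileum). The study's filter (800 to 50000 UMIs, 200 to 6000 genes, at most 40% mitochondrial UMIs) kept 4255, 4360 and 8071.

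UMIs were summed per library and class for sums of at least 10 barcodes and tested with edgeR 4.0.16 in R 4.3.3 (filterByExpr, TMM, two-sided quasi-likelihood test, the library as blocking factor, Benjamini-Hochberg over all genes tested, 0.05). DESeq2 1.42.0 was an alternative. Cells were not treated as replicates, and genes that defined a class were left out of its counts. Shares have exact binomial and levels exact Poisson intervals at 95% (scipy 1.17.1, Python 3.11.15). Thinning drew 2000 UMIs per barcode, with 800 as an alternative. Sequences were aligned with Biopython 1.88 from GENCODE M21 transcripts. The fitting steps were tested on simulated data with a log2 fold of 2 in 200 genes. Recovery is given as a share of all 200 changed genes, tested or not. It was 79% over 13988 genes in the first comparison (200 changed genes tested, 6 false calls). In the second it was 79% over 3205 genes (164 tested, 7 false calls), and in the third 92.5% over 4536 genes (193 tested, 20 false calls).

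All members are given in each comparison, and of 5 fixed lists the 4 largest changes past the threshold, with called markers of other cells; 1 gene that this rule names is not reported here. Members and lists were chosen with earlier results of these data known. The symbols Mazr and Cd244a matched no gene and were not used. Other alternatives were RLE and no scaling, no low-count filter, no library block, other thresholds on CD3, class UMIs, mitochondria and barcode numbers, removal of barcodes with over 1% enterocyte UMIs, and leaving out each library. Proteins were not analysed here.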

Additional observations from a re-analysis of the deposited data

Results flagged for a closer look

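Cd8a moved in opposite directions between segments when Trdc-only barcodes were set against Trac-only barcodes. Its log2 ratio was 1.00 in the duodenum (counting interval 0.33 to 1.67), 0.25 in the jejunum (-0.09 to 0.58) and -0.37 in the ileum (-0.50 to -0.24). The duodenal ratio rested on 39 and 41 UMIs. With 1 library per segment the difference was not tested, and the intervals cover counting error only.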

How the results depend on the processing

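Classes were compared within libraries, with the library as a term of each fit other than those named as without the block. No paired analysis was possible because, between segments, each has 1 library. The comparison of Cd3 barcodes with the rest gave 4490 to 7074 calls under 14 alternatives, each within 1.5 times of 6728. For Trdc-only against Trac-only barcodes, where 23 genes passed, the count was 120 without the low-count filter, 11 without the library block, 9 in all deposited barcodes, 161 with at most 20% mitochondrial UMIs, 183 without barcodes over 1% enterocyte UMIs and 115 with classes set at 2 UMIs. Leaving out 1 library gave 7 to 120 (120 without the duodenum, 103 without the jejunum, 7 without the ileum). The settings at 161, 183 and 115 used 2 libraries, since a duodenal sum fell under 10 barcodes. Tcrg-C1 passed in 15 of 15 alternatives (adjusted p up to 0.0491), Cd8b1 in all but 3 (adjusted p 0.245 without the block, 0.103 in all deposited barcodes, 0.46 without the ileum), Tcrg-C4 in 5, Trbc2 in 3 and Trbc1 in 1. Cd8a, never called, gave -0.17 to 0.60 without 1 library and turned to -0.17 without the duodenum and in all deposited barcodes, -0.10 with at most 20% mitochondrial UMIs and -0.0775 with classes at 2 UMIs. For Cd8b1-positive against Cd8b1-negative barcodes (143 calls), DESeq2 gave 6, the fit without the block 34 and 1 or more CD3 UMIs 54. Tcrg-C1 was lost under DESeq2 alone of 11 alternatives, Trbc2 turned to 0.0324 without barcodes over 1% enterocyte UMIs, and fits without 1 library or with classes at 2 UMIs could not be made. The share of Trdc-only barcodes moved in the ileum to 40.5% at 2000 and 51.6% at 800 UMIs, and in the jejunum to 72.2% at 800. The share with Cd8b1 moved in the jejunum to 10.0% with classes at 2 UMIs and 0% at 800, and in the ileum to 41.0% with classes at 2 UMIs, 38.2% at 2000 and 19.8% at 800. The ileal share of Cd4-positive barcodes moved to 10.1% with classes at 2 UMIs. With sums of 5 or more barcodes 2 libraries allowed a test of Cd4-positive against Cd8-positive barcodes, which called 162 of 3724 genes, with Tcrg-C2 at -3.29 (edgeR adjusted p = 0.000521) and Tcrg-C4 at -6.44 (0.000132). The jejunal sums in it held 5 Cd4-positive and 28 Cd8-positive barcodes. With 1 ileal UMI beside Cd4 against 498, Tcrg-C4 entered that test through the Cd8-positive barcodes, and its direction is a description only. Other than where fewer libraries entered a fit, the cause was not tested. Depth limits every share of barcodes with a gene, and 53 duodenal Cd3 barcodes limit that segment.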
